A study of Mus musculus with 36 samples.

Results

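The genes described here encode voltage-gated sodium channels of the mouse hippocampus: the pore-forming alpha subunits Scn1a, Scn2a, Scn3a and Scn8a and the auxiliary beta subunits Scn2b, Scn3b and Scn4b. They were taken by gene symbol from the array's annotation, which gave 18 probes of 46632 for these 7 genes of 17711 named ones. Total RNA from complete hippocampi of 23 male mice was measured on Illumina MouseWG-6 v1.1 BeadChips, whose normalized intensities were analysed on the log2 scale. In the Braf experiment, 5 Braf-cko mice carried homozygous Braf-flox alleles and a heterozygous CamkIIa-Cre transgene, and their 6 Braf-flox littermates carried homozygous floxed alleles without Cre. Both of these groups were 4 months old on a mixed background of 93.7% C57BL/6J, 6.2% FVB and 0.1% 129/Sv. In the Cre experiment, 6 CamkII-Cre mice carried the heterozygous CamkIIa-Cre transgene alone and were set against 6 CamkII-wt wildtype littermates. Both of these groups were 6 months old on a C57BL/6J background. The CamkIIa promoter drives Cre in the principal neurons of the forebrain. The study found BRAF kept in parvalbumin interneurons of the hippocampus. It ascribed the remaining ERK activity to a likely source in non-glutamatergic neurons or glia without Cre. RNA of interneurons and glia was also part of each sample.

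Voltage-gated sodium channels open when the membrane is depolarised and carry the inward current of the action potential. The alpha subunit forms the pore and the voltage sensors, and the beta subunits, single-pass membrane proteins with an immunoglobulin domain, change gating, surface level and cell adhesion. In the hippocampus the channels are packed at the axon initial segment, where spikes start. BRAF is a kinase of the ERK/MAPK cascade, and ERK can phosphorylate sodium channels directly as well as change transcription.

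In Braf-cko hippocampi, Scn1a fell by 0.41 on the log2 scale relative to Braf-flox hippocampi, and it was the only one of the 7 genes with a called change, a call that was lost in 9 of 11 fits that each left out 1 animal and in 4 of 11 other alternatives. Scn3b, at its brighter probes, had log2 changes of -0.34 and -0.38, and Scn8a had log2 changes of 0.29 and 0.37, but neither gene passed the threshold used here. In its own analysis of these hippocampi, the study listed Scn3b among the genes downregulated in Braf-cko mice and did not list Scn1a. Scn2a, Scn2b, Scn3a and Scn4b had changes between -0.18 and 0.14 at their tested probes. With the CamkIIa-Cre transgene alone, no probe of the 7 genes was called. The genes were selected on their symbols with the log2 intensities and changes of these arrays known, and are counted as chosen by both comparisons, so these values describe the members and no p-value is given for any of them.

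A call here is an adjusted p under 0.05 in limma, adjusted over the brighter 50% of probes (23316). Of the 18 sodium channel probes, 16 were tested in each experiment and 2 were too dim. In the Braf comparison 1 of 16 was called lower and 0 higher, beside 0.373% of all tested probes called lower, 0.159% called higher and 0.532% in either direction. At an unadjusted p under 0.05, 4 of the 16 lay lower and 2 higher, beside 10.8% of all tested probes. The groups did not overlap at 1 of the 16 probes, which lay lower in Braf-cko mice, beside 1.03% of all tested probes that lay lower without overlap, 0.691% that lay higher and 1.72% in either direction. The median change over the 16 probes was 0.02, with 0.00 over all tested probes, and 8 of the 16 changes were below 0. Because the genes were chosen with this contrast known, nothing is read from these shares.

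**Figure D1:**
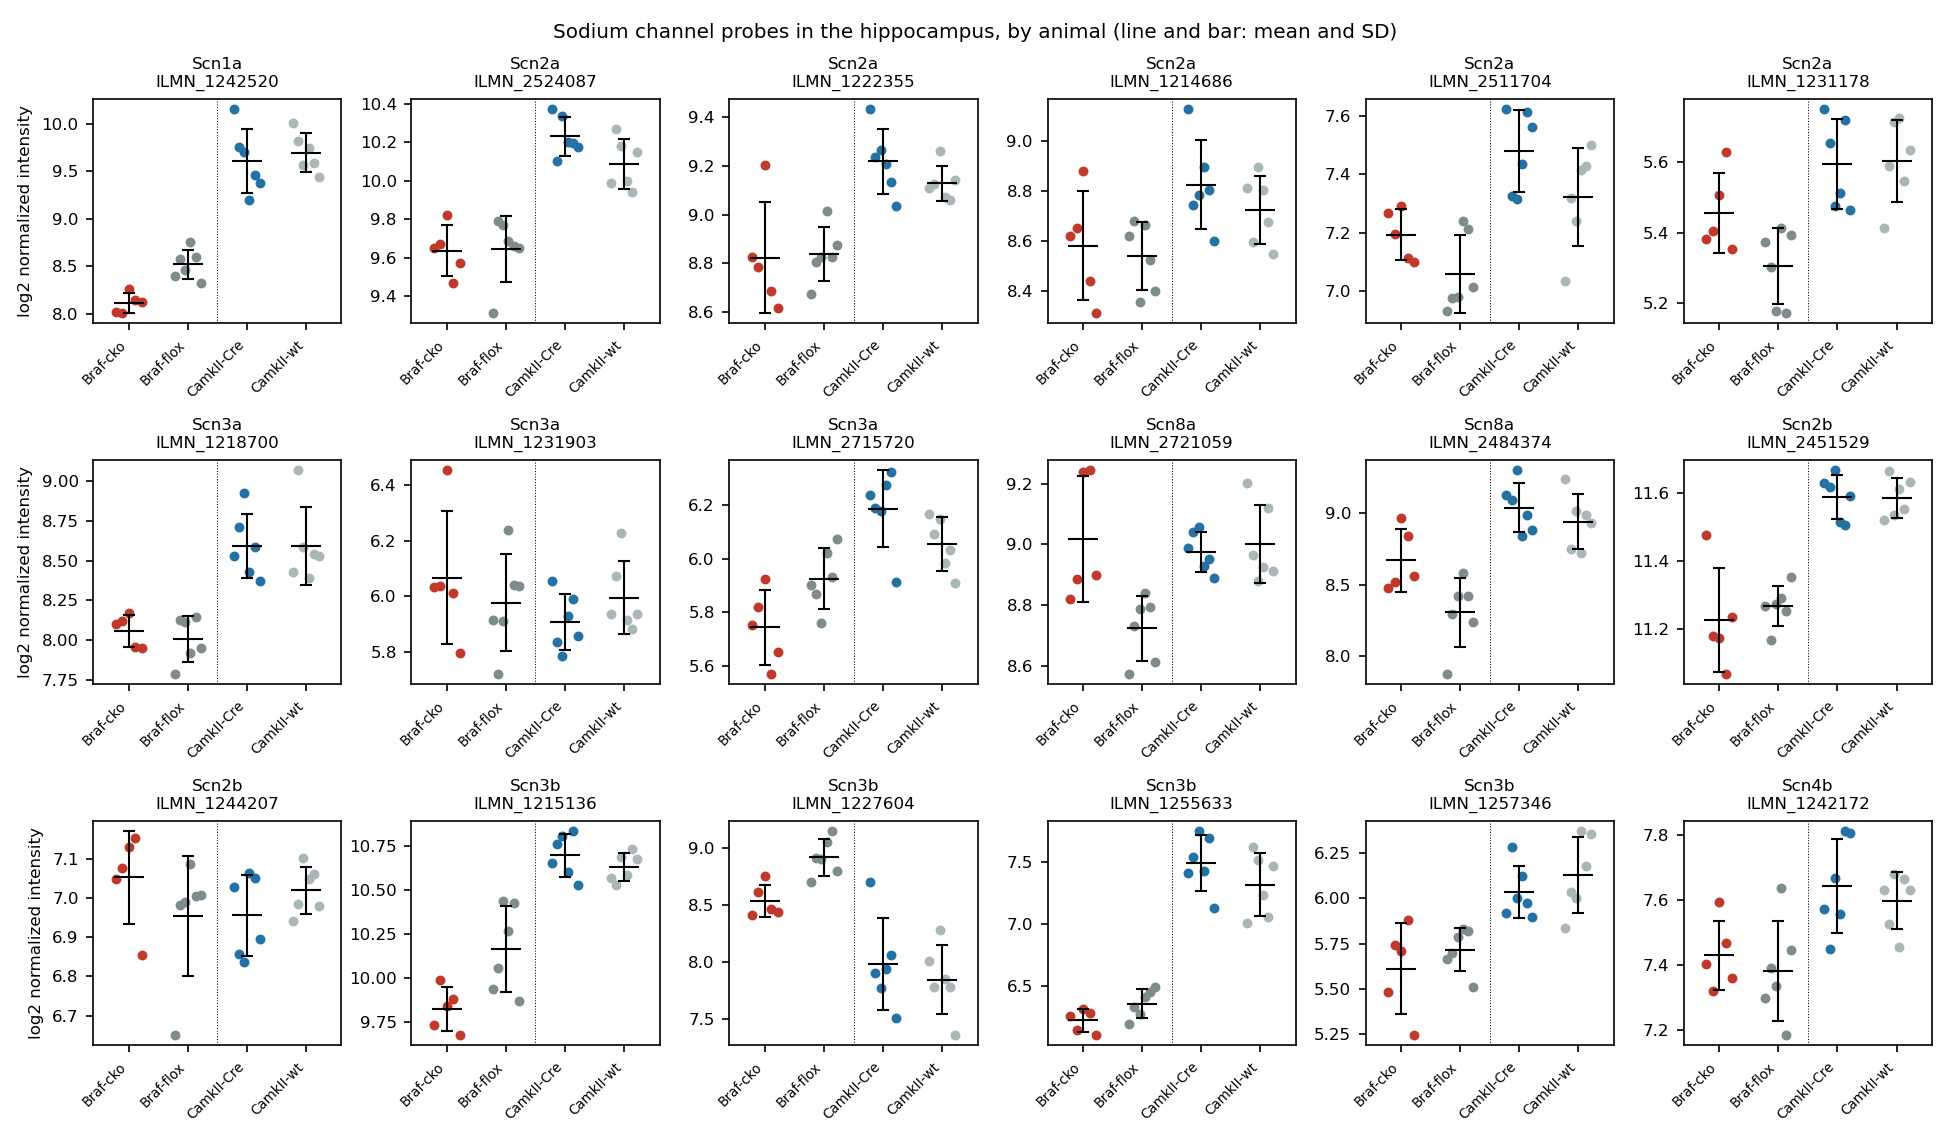
Log2 normalized intensity (y axis, own scale in each panel) of the 18 sodium channel probes in each animal, by group (x axis), with horizontal line and bar for mean and SD. The panel of Scn1a shows the 5 Braf-cko animals between 8.01 and 8.26, all below the Braf-flox animals, which lay between 8.32 and 8.75. The dotted line parts the experiments, which were normalized apart.

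Braf itself could not check the labels, because its probe was too dim for the test in the Braf experiment and was not placed relative to the floxed exon. Dusp6, a phosphatase induced by and acting on ERK, was lower in Braf-cko mice at both of its probes, with changes of -1.30 (SE 0.19, adjusted p = 0.0047 in limma) and -1.06 (SE 0.15, adjusted p = 0.0044), and its groups did not overlap. Markers of hippocampal principal neurons were bright in all groups, with Camk2a at 11.98 ± 0.11 in Braf-cko and 12.08 ± 0.17 in Braf-flox mice (log2 mean ± SD, n = 5 and 6). The summed intensity of 6 markers of neighbouring thalamus and choroid plexus ranged between 847 and 2371 in Braf-cko mice and between 774 and 16847 in Braf-flox mice, the highest value being that of 1 Braf-flox animal, number 6. The Scn1a, Scn3b and Scn8a changes in the Braf experiment are therefore also given without that animal. In the Cre experiment the same sum ranged between 1754 and 28079 in CamkII-Cre mice and between 1120 and 33935 in CamkII-wt mice. Of these markers, Ttr (choroid plexus) varied most in the Braf experiment, at 8.48 ± 1.36 in Braf-cko and 9.54 ± 2.45 in Braf-flox mice. The sum adds linear intensities, so it does not show thalamus apart from choroid plexus. Where a gene differs in these tissue samples, fewer cells of a type and less RNA per cell cannot be told apart.

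The sequences before the starts of Scn1a, called lower in Braf-cko mice, and of Scn8a, whose probes lay higher there, are shown because these genes differed most in opposite directions among the alpha subunits. They are the 250 bases before the RefSeq start in GRCm38.p6, read along the gene's strand, with each CG dinucleotide in capitals. The Scn1a window is at chr2:66440838-66441087 (minus strand), and that of the first of the 2 Scn8a starts listed is at chr15:100870395-100870644 (plus strand). The Scn8a window lies within the gene span, which begins at chr15:100869863, so it precedes a listed transcript start and not the first base of the gene.
Scn1a: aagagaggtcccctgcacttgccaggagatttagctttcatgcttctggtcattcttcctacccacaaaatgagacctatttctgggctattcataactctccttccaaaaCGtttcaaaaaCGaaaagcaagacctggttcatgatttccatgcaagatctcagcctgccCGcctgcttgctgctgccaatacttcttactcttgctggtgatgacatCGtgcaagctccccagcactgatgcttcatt
Scn8a: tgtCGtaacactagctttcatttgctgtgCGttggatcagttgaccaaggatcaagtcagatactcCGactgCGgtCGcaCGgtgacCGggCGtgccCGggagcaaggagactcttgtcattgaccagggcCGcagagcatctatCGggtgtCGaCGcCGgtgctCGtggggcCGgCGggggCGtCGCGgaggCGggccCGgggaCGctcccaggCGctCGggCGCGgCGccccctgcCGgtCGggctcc

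The Scn1a window held 4 CG dinucleotides and 46.8% G and C, and the Scn8a window held 30 and 68.0%, where the median over all 32851 windows was 6 CG dinucleotides. The second Scn8a window held 9, those of Scn2a held 2 and 9, that of Scn2b held 1 and that of Scn4b held 23. Letters bound by factors downstream of ERK were searched on both strands: TGACGTCA and the shorter TGACG (CREB, the shorter lying within the longer), CCGGAAG (ETS factors) and GCGTGGGCG (EGR factors). None of the 7 windows of the 5 genes held any of them, while 1.55%, 17.8%, 6.91% and 0.536% of all windows did. Scn3a and Scn3b had no entry in the table of sequences. The absence of a match says only that these letters were not in these windows.

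Scn1a encodes the alpha subunit on which the fast firing of parvalbumin interneurons rests, and is known as the gene of Dravet syndrome. It lies at chr2:66270781-66440837 in GRCm38.p6, in a cluster with Scn2a, Scn3a and the non-members Scn7a and Scn9a, and was measured by 1 probe (ILMN_1242520). Its log2 intensities in the Braf-cko mice were 8.02, 8.01, 8.26, 8.14 and 8.12, and in the Braf-flox mice they had a lowest value of 8.32, a median of 8.52 and a highest value of 8.75. Every Braf-cko animal was below every Braf-flox animal. The means were 8.11 ± 0.10 and 8.52 ± 0.15 (Braf-cko, n = 5, and Braf-flox, n = 6, SD), a change of -0.41 (SE 0.083, 95% interval -0.59 to -0.23), so that the signal in Braf-cko mice stood at 75.3% of that in Braf-flox mice.

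The size of the Scn1a change depended little on any single animal, while its call did. With each of the 11 animals left out in turn, the change lay between -0.45 and -0.36, and the call held in 2 of these 11 fits, those without Braf-cko number 3 and without Braf-flox number 6, and was lost without any one of the other 9 animals. Without Braf-flox number 6, the animal with the highest sum of thalamus and choroid plexus markers, the change was -0.45. Within the animals numbered 1 to 3 it was -0.38, and within those numbered 4 to 6 it was -0.43. The call was also lost in 4 of the 11 alternatives that left out no animal, among them 1 fit of all 4 groups, the methods' t-test and animals 1 to 3 and 4 to 6 as blocks.

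In the Cre experiment, Scn1a had log2 intensities of 9.19 at the lowest, 9.58 at the median and 10.16 at the highest in CamkII-Cre mice, and of 9.44, 9.67 and 10.01 in CamkII-wt mice. These groups overlapped over most of their range, and 3 of the 6 CamkII-Cre animals were below the CamkII-wt mean. The change was -0.09 (SE 0.14, 95% interval -0.39 to 0.21). The 95% interval of the difference between the Scn1a changes in the Braf and in the Cre comparison ran between -0.68 and 0.04, and this difference was not called.

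The summed intensity of interneuron markers was also set beside Scn1a. The summed intensity of 7 of 7 listed markers (Gad1, Gad2, Slc32a1, Pvalb, Lhx6, Dlx1 and Reln) was 13146, 12759, 12802, 12326 and 13329 in the Braf-cko mice, and in the Braf-flox mice it was 13908 at the lowest and 17912 at the highest. As with Scn1a, these groups did not overlap, and all 7 markers were among the tested probes. Linear intensities were added, so the brighter markers weigh most in this sum. Of the 7 markers 6 had a change below 0, with a median of -0.13, and none was called by itself. Pvalb, a calcium buffer of fast-spiking interneurons, had a change of -0.48 (SE 0.19, adjusted p = 0.36 in limma), and Slc32a1, the vesicular GABA transporter, one of -0.17 (SE 0.066, adjusted p = 0.35). The other markers had changes of -0.19 (Gad1), -0.13 (Reln), -0.05 (Lhx6), -0.04 (Gad2) and 0.06 (Dlx1). Within groups, Scn1a and the log2 of that sum correlated at r = 0.44 over the 11 animals of the Braf experiment and at 0.60 over the 12 of the Cre experiment, as a description of animals that share arrays and normalization. Scn4b had a higher r in the Braf experiment (0.61) but -0.41 in the Cre experiment, and Scn2b had 0.31 and 0.32. For Scn2a, Scn3a, Scn8a and Scn3b, r lay between -0.44 and -0.05 in the Braf and between -0.42 and 0.14 in the Cre experiment. The part of the interneuron markers in the Scn1a change was not tested.

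**Figure D2:**
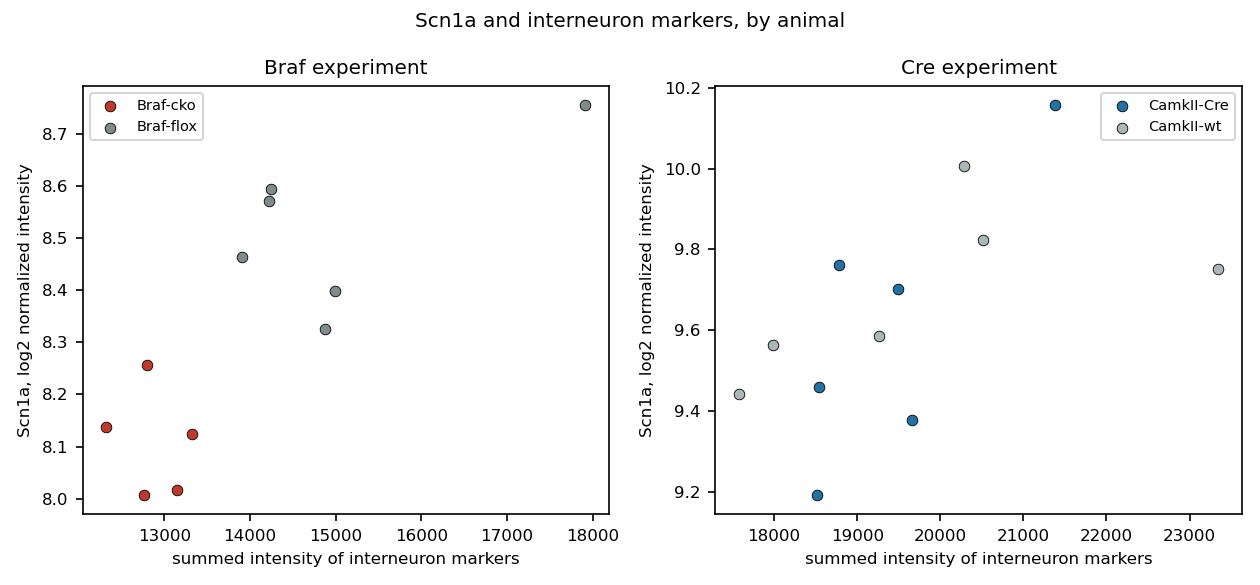
Scn1a log2 normalized intensity (y axis) against the summed normalized intensity of 7 interneuron markers (x axis), 1 point per animal, for the Braf experiment (left) and the Cre experiment (right). The Braf-cko points lie below and left of all Braf-flox points, while CamkII-Cre and CamkII-wt points mix.

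Scn8a encodes the alpha subunit that dominates the mature axon initial segment and the nodes of Ranvier and carries persistent and resurgent current. It lies at chr15:100869863-101045938 and had 2 probes. At the brighter one (ILMN_2721059) the Braf-cko mice had log2 intensities of 8.82, 8.89, 9.24, 9.24 and 8.90, and the Braf-flox mice had 8.58 at the lowest, 8.76 at the median and 8.84 at the highest. Only the lowest Braf-cko animal fell below the highest Braf-flox animal, so the groups overlapped by 1 animal on each side. The change was 0.29 (SE 0.092, 95% interval 0.10 to 0.49), or 123% of the Braf-flox signal.

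At the second Scn8a probe (ILMN_2484374) the values were 8.47, 8.52, 8.97, 8.84 and 8.56 in the Braf-cko mice, against 7.87 at the lowest, 8.36 at the median and 8.58 at the highest in the Braf-flox mice. All 5 Braf-cko animals were again above the Braf-flox mean, with more overlap than at the first probe. The change was 0.37 (SE 0.12, 95% interval 0.10 to 0.63), or 129% of the Braf-flox signal. These probes followed each other across the 23 animals (r = 0.82 of deviations from the group mean), and neither was called. In the Cre experiment the changes were -0.03 (95% interval -0.16 to 0.11) and 0.10 (95% interval -0.11 to 0.30), with overlapping groups.

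Scn2a encodes the main alpha subunit of excitatory principal neurons, found at the proximal initial segment and along unmyelinated axons. It lies at chr2:65620764-65767447 and had 5 probes, of which the dimmest (ILMN_1231178) was not tested in either experiment. At the brightest (ILMN_2524087) the Braf-cko mice had log2 intensities of 9.65, 9.67, 9.82, 9.47 and 9.57, and the Braf-flox mice had 9.31 at the lowest, 9.67 at the median and 9.79 at the highest. The groups lay over each other, with a change of -0.01 (SE 0.091, 95% interval -0.20 to 0.19). The other tested probes had changes of -0.01 (ILMN_1222355), 0.04 (ILMN_1214686) and 0.14 (ILMN_2511704), and at the last of these all 5 Braf-cko animals were above the Braf-flox mean.

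With the Cre transgene alone, all 4 tested Scn2a probes lay above the CamkII-wt mean, by 0.14, 0.09, 0.10 and 0.16 in the same order of probes. At the brightest probe the CamkII-Cre mice had 10.10 at the lowest, 10.20 at the median and 10.37 at the highest, and the CamkII-wt mice had 9.94, 10.07 and 10.27. All 6 CamkII-Cre animals were above the CamkII-wt mean, although the ranges overlapped. The 95% interval of this change ran between -0.001 and 0.289, and it was not called.

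Scn3a encodes an alpha subunit found mostly before and shortly after birth. It lies at chr2:65457118-65567591, beside Scn2a, and had 3 probes. At the brightest (ILMN_1218700) the log2 intensities were 8.10, 8.12, 8.17, 7.95 and 7.95 in the Braf-cko mice, and 7.79 at the lowest, 8.03 at the median and 8.15 at the highest in the Braf-flox mice. These groups overlapped almost fully, and the change was 0.05 (SE 0.081, 95% interval -0.12 to 0.22). The probes of this gene did not move together: ILMN_1231903 had a change of 0.09 and the dim ILMN_2715720 one of -0.18 (SE 0.080), with all 5 Braf-cko animals below the Braf-flox mean but with overlap. With the Cre transgene alone the changes were 0.00, -0.09 (not tested) and 0.13 in the same order.

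Among the beta subunits, Scn3b had the widest changes. It encodes a beta subunit that binds the alpha subunit without a covalent bond, lies at chr9:40269216-40291618, and had 4 probes. At the brightest (ILMN_1215136) the log2 intensities were 9.73, 9.99, 9.84, 9.88 and 9.68 in the Braf-cko mice, and 9.87 at the lowest, 10.16 at the median and 10.44 at the highest in the Braf-flox mice. The Braf-cko animals were all below the Braf-flox mean, while the lower Braf-flox animals reached into their range. The change was -0.34 (SE 0.11, 95% interval -0.58 to -0.11), or 79.0% of the Braf-flox signal.

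The second Scn3b probe (ILMN_1227604) had log2 intensities of 8.41, 8.61, 8.75, 8.46 and 8.44 in the Braf-cko mice, and of 8.70 at the lowest, 8.90 at the median and 9.15 at the highest in the Braf-flox mice. Only 1 animal of each group lay in the range shared by both. The change was -0.38 (SE 0.091, 95% interval -0.58 to -0.19), or 76.8% of the Braf-flox signal. The third probe (ILMN_1255633), annotated to another transcript record, had a change of -0.14 with all 5 Braf-cko animals below the Braf-flox mean, and the dim ILMN_1257346, not tested, had -0.11 with 3 of 5 below. None of them was called.

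In the Cre experiment the first 3 Scn3b probes lay slightly the other way, at 0.07 (95% interval -0.07 to 0.20), 0.14 (95% interval -0.23 to 0.51) and 0.17 (95% interval -0.08 to 0.43), and the dim one at -0.10, with overlapping groups at each. The experiments differ in age, strain background and normalization, so setting their changes against each other does not isolate the Braf deletion from the transgene. The difference between the Braf and the Cre change was -0.41, -0.52 and -0.31 at the first 3 probes. Its 95% intervals were -0.67 to -0.14, -0.96 to -0.08 and -0.62 to -0.005. Its interval also left out 0 at Scn8a ILMN_2721059 (0.32, 95% interval 0.09 to 0.55) and at the dim Scn3a probe ILMN_2715720 (-0.31, 95% interval -0.53 to -0.09). The share of all tested probes whose interval left out 0 was not counted, so nothing is read from these intervals. Over the 16 probes tested for this difference, 0 were called, beside 0.146% of all tested probes called lower, 0.0386% called higher and 0.184% in either direction. Leaving out Braf-flox number 6 gave Braf changes of -0.40 and -0.41 at the brighter Scn3b probes, and of 0.27 and 0.35 at those of Scn8a (ILMN_2721059 and ILMN_2484374).

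Scn2b encodes a beta subunit joined to the alpha subunit by a disulfide bond, which raises the number of channels at the surface. It lies at chr9:45117876-45130070, 8553 bases from Scn4b, and had 2 probes. The brighter one (ILMN_2451529) had log2 intensities of 11.48, 11.18, 11.17, 11.07 and 11.24 in the Braf-cko mice, and of 11.17 at the lowest, 11.27 at the median and 11.35 at the highest in the Braf-flox mice. Both the lowest and the highest animal were Braf-cko mice. The change was -0.04 (SE 0.075, 95% interval -0.20 to 0.12), and 0.10 at the dimmer probe (ILMN_1244207). In the Cre experiment these were 0.00 (95% interval -0.10 to 0.11), the narrowest interval of all 18 probes in either comparison, and -0.06.

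Scn4b encodes the other disulfide-linked beta subunit, whose intracellular tail has been linked to resurgent current. It lies at chr9:45138624-45154155 and had 1 probe (ILMN_1242172). Its log2 intensities were 7.40, 7.32, 7.59, 7.47 and 7.36 in the Braf-cko mice, and 7.19 at the lowest, 7.36 at the median and 7.64 at the highest in the Braf-flox mice. The Braf-cko animals lay inside the Braf-flox range. The change was 0.05 in both comparisons, with 95% intervals of -0.13 to 0.23 (Braf) and -0.10 to 0.19 (Cre).

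**Figure D3:**
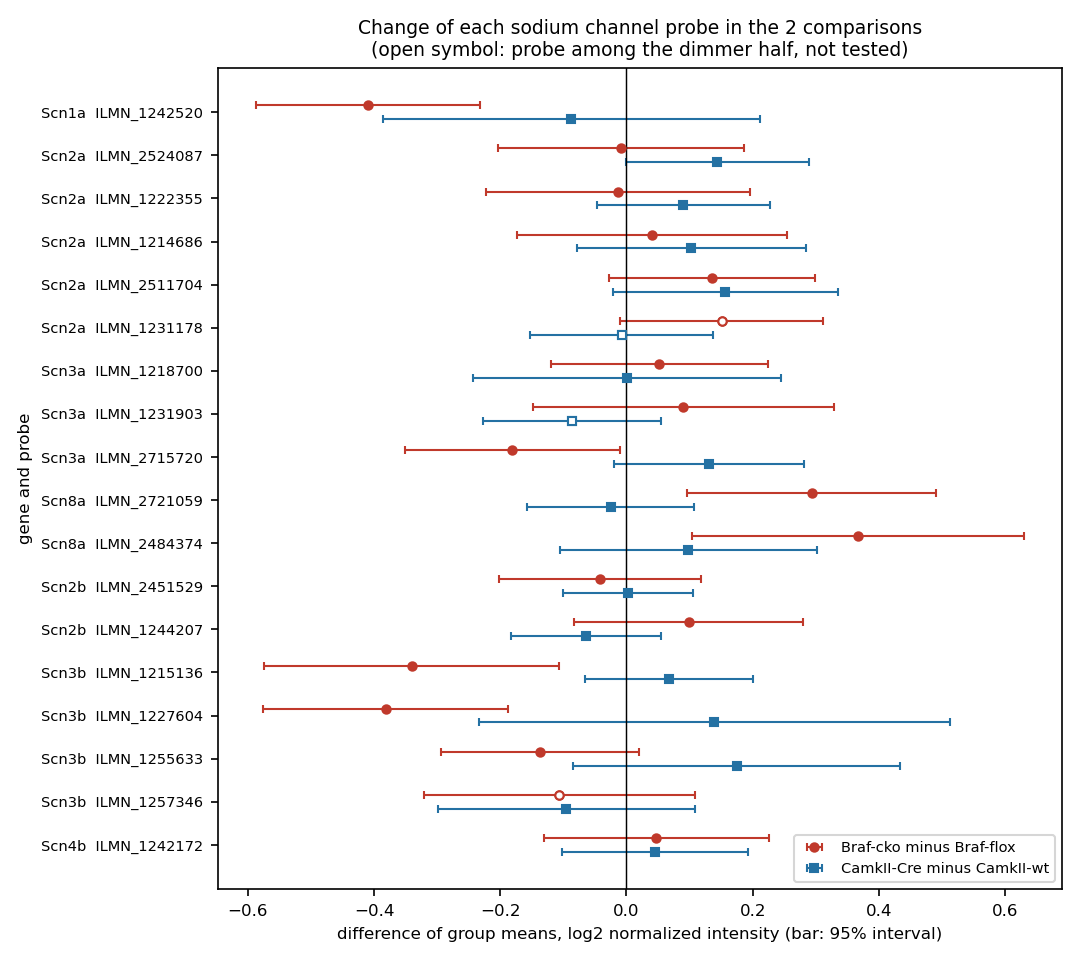
Difference of group means in log2 normalized intensity (x axis), with its 95% interval, for each sodium channel probe (y axis). Circles give Braf-cko minus Braf-flox and squares give CamkII-Cre minus CamkII-wt, with open symbols for probes too dim for the test. Of the 18 Braf intervals 6 leave out 0, at Scn1a, both Scn8a probes, 2 probes of Scn3b and 1 of Scn3a, and of the 18 Cre intervals 0 do.

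With the CamkIIa-Cre transgene alone, 0 of 16 tested sodium channel probes were called in limma, beside 0.00858% of all tested probes, and 0 of 16 were under an unadjusted p of 0.05, beside 1.63% of all. No sodium channel probe separated CamkII-Cre from CamkII-wt animals without overlap, beside 0.0386% of all tested probes that lay lower without overlap, 0.0429% that lay higher and 0.0815% in either direction. The 16 changes had a median of 0.08, with 0.00 over all tested probes, and 4 of the 16 were below 0. They ranged between -0.10 and 0.17, and between -0.41 and 0.37 in the Braf comparison.

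The animals numbered 1 to 3 and 4 to 6 were also compared within each set. The labels name no chip, so these sets are not known batches, the second holds 2 Braf-cko animals, and Braf-cko number 1 is the mean of 2 arrays. The sets divide the animals already known when the genes were chosen, so equal signs are a description and no replication. In the Braf experiment 9 of 18 probes had a change of the same sign in both sets of animals. These were the probes of Scn1a, Scn8a and Scn3b, 1 dim probe of Scn2a and 1 of Scn3a. The Scn1a groups did not overlap, so its sign could not differ between the sets. Scn3b had -0.29 in animals 1 to 3 and -0.41 in animals 4 to 6 at its brightest probe, and -0.25 and -0.55 at the second. Scn8a had 0.28 and 0.32 at its brighter probe and 0.46 and 0.29 at the other. Scn2a had 0.17 and -0.25 at ILMN_1222355, and Scn3a had 0.33 and -0.20 at ILMN_1231903. In the Cre experiment Scn1a had 0.08 and -0.25, and 9 of 18 probes kept their sign.

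**Figure D4:**
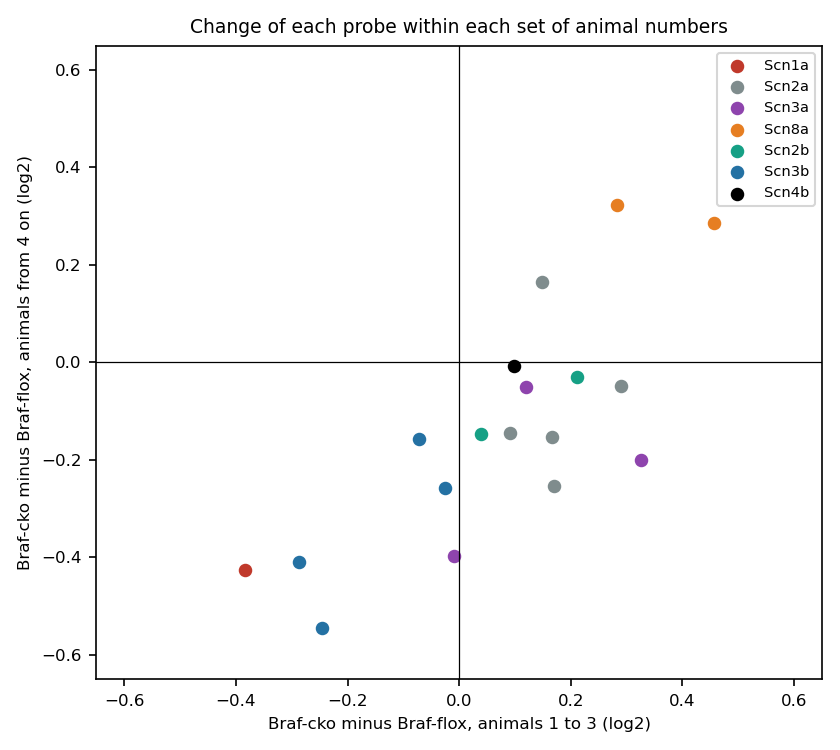
Braf-cko minus Braf-flox change in log2 units for each of the 18 probes, within animals 1 to 3 (x axis) and within animals 4 to 6 (y axis), coloured by gene. Points of Scn1a and Scn3b lie in the lower left and those of Scn8a in the upper right, while most points of Scn2a lie where the signs differ.

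All CamkII-Cre and CamkII-wt animals were measured on 2 arrays, which showed how far sodium channel probes move between arrays of the same RNA. At 10 of the 18 probes the second array was lower than the first in all 12 animals. The same count was not made over all probes, so nothing particular to sodium channel probes is read from it. The second array minus the first averaged -0.71 at the brightest Scn2b probe and -0.94 at the Scn2a probe ILMN_2511704, with a range between -1.35 and -0.59. This difference averaged -0.25 at Scn1a, and at Scn8a it averaged -0.26 at ILMN_2721059 but 0.08 at the other probe, ILMN_2484374. Since each animal had 1 array in each set, both sets hold all CamkII-Cre and CamkII-wt mice, and the Cre change kept its sign across the sets at 13 of 18 probes. After removal of the mean shift, 1 array had an SD of 0.082 for Scn1a, beside 0.28 between animals of a group, and of 0.17 for Scn4b, beside 0.12 between animals. In the Braf experiment only Braf-cko number 1 had a second array, which differed from the first by 0.08 at Scn1a and by -0.20 at each of the brighter Scn3b probes.

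**Figure D5:**
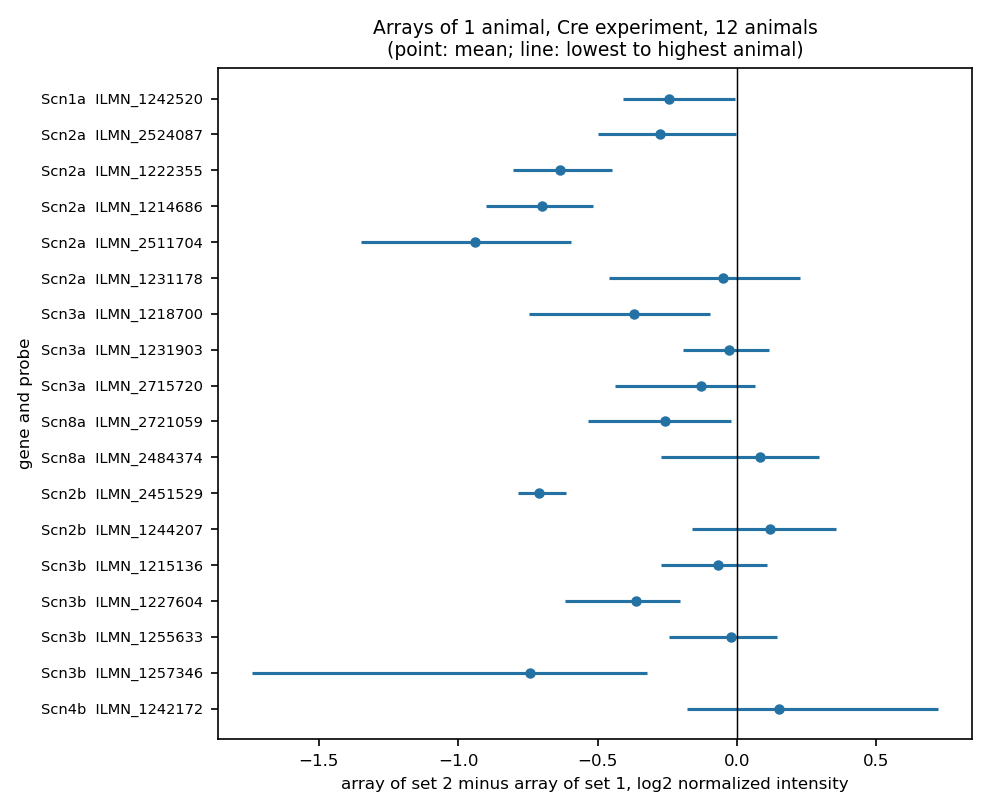
Array of technical set 2 minus array of set 1 for the same animal in log2 normalized intensity (x axis) for each probe (y axis), over 12 animals of the Cre experiment, as mean (point) and range (line). The lines of all but 1 Scn2a probe, of Scn1a and of the brighter Scn2b probe stay below 0. Those of Scn4b, the brightest Scn3b probe, Scn8a ILMN_2484374 and several dimmer probes cross it.

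Across the 23 animals, with group means removed, the brightest probes of Scn2a and Scn3a, which are neighbours on chromosome 2, varied together most closely of the 21 pairs (r = 0.63, with 0.84 in the Braf and 0.58 in the Cre experiment). Scn1a and Scn8a followed with r = 0.50, although their group changes in the Braf experiment ran in opposite directions. Scn8a and Scn2b had r = -0.48. Probes of 1 gene did not always follow each other more closely than probes of different genes, since r was 0.82 for the Scn8a probes, up to 0.69 for Scn2a, and -0.25 for Scn2b. The points of each correlation share arrays and normalization.

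Of 15568 probes of other named genes, those that varied most like Scn1a across the 23 animals were Map1a, a microtubule-associated protein of neurons (r = 0.86), Fam117b (r = 0.86) and Kcnj3, a G protein-gated potassium channel subunit (r = 0.85). For Scn3b they were Capn3 (r = 0.83), Tmem114 (r = 0.81) and Rapgef2, an exchange factor for Rap (r = 0.78). For Scn2b they were Rpain, Lrpap1 and Bcl2l2 (r = 0.74, 0.74 and 0.73). These are the highest of many values, measured within groups, and the Braf-cko changes of the genes most like Scn3b (0.15, 0.48 and 0.13) were opposite in sign to that of Scn3b.

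Among other sodium channel genes, Scn7a was tested and had a change of -0.01 (SE 0.20, adjusted p = 0.99 in limma) in the Braf and -0.06 in the Cre comparison, Scn10a and Scn11a were too dim, and Scn4a and Scn9a were not analysed here. Scn10a averaged 5.31 ± 0.058 in Braf-cko and 5.28 ± 0.19 in Braf-flox mice, and Scn11a averaged 5.51 ± 0.33 and 5.59 ± 0.21. The partners of the channels gave no call either. Of 9 tested genes of the axon initial segment and node (11 listed), 0 rose and 0 fell in either comparison, and their median Braf change was 0.04. Cntnap2, a neurexin-like adhesion protein beside the node, had a change of -0.30 (SE 0.077, adjusted p = 0.13), and Cntnap1, its paranodal relative, one of 0.23 (SE 0.080, adjusted p = 0.28).

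Of 18 tested partners and regulators in the Braf comparison (24 listed), 0 were called, with a median change of -0.01. The nearest were Csnk2a1, a catalytic subunit of the kinase that strengthens ankyrin binding of the channels (-0.38, SE 0.11, adjusted p = 0.19 in limma), and Nedd4l, a ubiquitin ligase that lowers their surface level (-0.22, SE 0.076, adjusted p = 0.27). Of 6 tested genes of sodium extrusion and leak (9 listed), 0 were called, with a median of -0.01, and Slc8a1, a sodium-calcium exchanger, had -0.14 (adjusted p = 0.56) and Atp1b2, a sodium pump subunit, 0.13 (adjusted p = 0.65). In the Cre comparison 0 of these 9, 16 and 5 tested genes were called, the nearest being Trim46, an organiser of the initial segment (0.10), Cntnap1 (-0.08), Ptprz1 (0.11), S100a10 (0.22), Slc8a2 (-0.15) and Atp1b2 (0.08), each at an adjusted p of 1.00.

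Markers of other cell types gave no call in either comparison. For principal neurons, Slc17a7, the vesicular glutamate transporter, had a Braf change of 0.34 (SE 0.12, adjusted p = 0.32 in limma) and Wfs1 one of -0.35 (SE 0.29, adjusted p = 0.73). For astrocytes, Aqp4, the water channel, had -0.26 (SE 0.082, adjusted p = 0.23) and Gfap, an intermediate filament, 0.17 (SE 0.15, adjusted p = 0.74). The oligodendrocyte genes Cnp and Mag had -0.12 and -0.13, the microglial genes Cx3cr1 and C1qa had -0.13 and 0.15, and Kl and Ttr, of the choroid plexus, had -0.34 and -1.06, none of them called. In the Cre comparison the nearest markers were Pvalb (-0.09) and Lhx6 (-0.07) for interneurons, Camk2a (-0.21) and Slc17a7 (0.18) for principal neurons, Mobp (0.17) and Cnp (0.14) for oligodendrocytes, Gfap (0.30) and Aqp4 (0.02) for astrocytes, C1qa (-0.07) and Cx3cr1 (0.02) for microglia, and Lef1 (0.07) and Prkcd (0.18) for thalamus and choroid plexus, each at an adjusted p of 1.00 in limma.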

How the data were processed

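The authors hybridized labelled hippocampal RNA to BeadChips and deposited normalized probe intensities on a linear scale, made in R with beadarray, limma and vsn per the study's methods. The order and settings of these steps are not given in the sources used here. Array medians were 51.8 to 53.3 in the Braf and 65.0 to 70.2 in the Cre experiment, so the deposited table was not brought to 1 scale and each experiment was fitted alone. A table of 36 signal columns and 36 detection p-value columns, under names that match no sample label, was not used, so no detection call was made.

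Intensities were taken to log2 and arrays of 1 animal averaged (36 arrays, 23 animals). Groups came from the labels. Differences were tested with limma 3.58.1 in R 4.3.3 (statmod 1.5.0), in a two-sided way. The 23316 probes in the brighter 50% of an experiment were tested, their p-values were adjusted after Benjamini and Hochberg, and 0.05 was the threshold. A fit of all 4 groups gave the difference of the changes. On simulated data of the Braf design, 63% of changes of 0.5 and 98% of changes of 1 on the log2 scale were recovered with 6 false calls. Symbols came from the platform annotation, updated by gene identifier (29921 of 29976 probes with 1 symbol matched RefSeq). RefSeq sequences are those of GRCm38.p6.

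The members and gene lists were chosen with earlier results of these data known. All member probes were named, the brightest standing for its gene, together with other sodium channel genes (some are not reported here), the called genes of each list or else the 2 with the smallest p, and the 3 genes most like Scn1a, Scn2b and Scn3b. Dusp6 and Braf were named as a check of the labels. Replicate numbers in the labels are animals of their own group, so they do not pair animals. The number of arrays limits precision. Alternatives covered the filter, normalization, an offset of 16, technical arrays, variance model, test, blocks and leaving out each animal.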

Additional observations from a re-analysis of the deposited data

Results flagged for a closer look

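In 4 of 72 groups of values of the 18 probes, 1 animal lay far from the other animals of its group, which chance does in about 1 in 20 groups. Braf-flox number 1 was lowest at the brightest Scn2a probe (9.31, with the nearest animal at 9.65) and at the dimmer Scn2b probe (6.65, with the nearest at 6.98). CamkII-wt number 2 was highest at the brightest Scn3a probe (9.07, nearest 8.59), and CamkII-Cre number 6 was lowest at the dim Scn3a probe ILMN_2715720 (5.91, nearest 6.18). None of these probes was called in any comparison, and none of the 4 values belonged to Scn1a, Scn3b, Scn4b or Scn8a.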

How the results depend on the processing

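Scn1a kept a negative Braf change in all 22 alternatives. Its groups did not overlap, so leaving out an animal could not change this sign, and the other alternatives used the same arrays. Scn1a was called in 7 of the 11 alternatives that left out no animal. The count of called sodium channel probes, 1 as reported, was 0 with 1 fit of all 4 groups (331 probes called over the array, against 124 as reported). It was also 0 with an ordinary t-test (19 over the array), with the replicate block (58) and with animals 1 to 3 and 4 to 6 as blocks. Leaving out each animal gave 0 or 1 sodium channel probes and between 69 and 114 probes over the array, the lower counts being 72 without Braf-cko number 1, 69 without Braf-cko number 4, 76 without Braf-cko number 5 and 81 without Braf-flox number 5. For the Cre comparison, with 2 probes called over the array, no filter on dim probes gave 6 and the first array of each animal 4. All arrays with the animal as a random block gave 4, as did array weights, 1 fit of all 4 groups and blocks of animals. An ordinary t-test gave 1, and leaving out each animal gave between 2 and 4 (4 without CamkII-Cre number 1). Under each of these, 0 sodium channel probes were called. The difference of the changes called between 31 and 60 probes with each animal left out (43 as reported), with 0 sodium channel probes. The cause of these shifts was not tested. Same-numbered animals did not deviate together in every pair (correlations of -0.14 to 0.13 in the Braf and -0.24 to 0.59 in the Cre experiment, where numbers 1, 2 and 6 had 0.38, 0.19 and 0.59), and an animal correlated best with its own number in 1 of 5 and 2 of 6 cases. In the Braf experiment the fit with the animal as a random block could not be fitted, since 1 animal had a second array. Using any tested probe in place of the brightest called no list gene. Signal over background was not assessed, since no detection call was used, and differences of about 0.2 log2 units were within the intervals of most probes.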
